A study of Homo sapiens with 12 samples.

Results

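Cholesterol and fatty acids are built by enzymes whose genes are switched on by the SREBP transcription factors, and 30 such genes, chosen by symbol, were followed in cells in which the helicase gene WRN was targeted. All 30 were in the count table of 25343 genes, and all 30 were among the 14199 genes with enough counts to be tested. Poly-A RNA was sequenced from 2 Cas9-expressing cancer lines, SW48 (colorectal) and OVK18 (ovarian), 72 hours after transduction. In each line the groups were cells with sgWRN2, cells with sgWRN3, which both target WRN, and cells with sgCh2-2, a control guide against an intergenic site on chromosome 2. All groups carried Cas9 and a guide, and each of the 6 groups had 2 libraries, A and B, with total counts of 15423162 to 32581625. The labels do not say whether the Cas9 lines were clones, nor whether A and B came from separate transductions, so the p-values measure the spread between these libraries.

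SREBPs are made as membrane proteins of the endoplasmic reticulum. When sterols are low they travel to the Golgi, are cut, and the freed part enters the nucleus and binds sterol elements in the promoters of its targets; when sterols are high, INSIG proteins hold them back. SREBF2 encodes the form known mainly for cholesterol genes, and SREBF1 encodes forms known mainly for fatty acid genes. Dividing cells need both kinds of lipid for new membranes.

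RefSeq promoter windows (GRCh38.p14) were matched by symbol for 26 of the 30 genes, all but FDFT1, SQLE, ACAT2 and FASN, and the 250 bases before each start site were searched on both strands. The letters TCACNCCAC, a form of the sterol element, were found in 1 of the 26 (3.85%), SREBF2, against 239 of 27305 windows of all genes (0.875%). The E-box CACGTG was in 2 (7.69%), INSIG1 and SC5D, against 6.49% of all windows. The box CCAAT, where the factor NF-Y binds, was in 17 (65.4%) against 33% of all windows, and the box GGGCGG, where Sp1 binds, was in 24 (92.3%) against 42.3%. These counts are descriptions, with no test, and a window with no match says only that those letters are not in it. The windows of all genes were not limited to genes tested here, as the 30 were, so the shares compare unlike sets. Stretches of 120 bases are shown for SREBF2, since it held the sterol element, and for INSIG1 and HMGCS1, which were added after the matches were seen as a feedback gene and a mevalonate enzyme without it. They lie at chr22:41832972-41833091 (plus strand, bases 133 to 14 before the start site), chr7:155297752-155297871 (plus strand, bases 126 to 7) and chr5:43313506-43313625 (minus strand, bases 213 to 94), and capitals mark every match of the 4 motifs on either strand.
SREBF2: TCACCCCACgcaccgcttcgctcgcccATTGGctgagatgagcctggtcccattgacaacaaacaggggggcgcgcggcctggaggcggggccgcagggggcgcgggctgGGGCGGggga
INSIG1: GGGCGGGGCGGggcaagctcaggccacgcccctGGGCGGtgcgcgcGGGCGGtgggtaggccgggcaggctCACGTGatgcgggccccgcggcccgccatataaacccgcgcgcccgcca
HMGCS1: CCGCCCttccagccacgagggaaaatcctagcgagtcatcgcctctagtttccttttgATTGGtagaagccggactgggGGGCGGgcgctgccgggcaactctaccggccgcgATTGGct
In SREBF2 the capitals are the sterol element, a CCAAT box on the other strand and a GGGCGG box. The INSIG1 stretch holds the E-box and 4 GGGCGG boxes, of which the first pair overlap. The HMGCS1 stretch holds 2 CCAAT boxes and 2 GGGCGG boxes.

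The targeted transcript was checked first. WRN stood at 37.2 and 34.1 CPM with sgWRN2, 42.3 and 56.9 with sgWRN3, and 91.2 and 112 with sgCh2-2 in SW48. In OVK18 it stood at 22.0 and 21.0 CPM with sgWRN2, 22.2 and 23.0 with sgWRN3, and 32.0 and 39.8 with sgCh2-2. All libraries of both WRN guides lay below the controls of their line. In edgeR's quasi-likelihood test WRN fell in SW48 with sgWRN2, with a log2 fold change of -1.51 (adjusted p = 0.000461), and with both guides combined, -1.27 (adjusted p = 0.00409). It did not pass with sgWRN3 in SW48, -1.03 (adjusted p = 0.438), nor in OVK18 with sgWRN2, -0.74 (adjusted p = 0.0658), sgWRN3, -0.67 (adjusted p = 1), or both, -0.71 (adjusted p = 0.206). CDKN1A, a cell cycle inhibitor induced by p53, rose in SW48 with both WRN guides combined, with a log2 fold change of 1.04 (SE 0.124, adjusted p = 0.00507), and with sgWRN2 alone, 1.40 (adjusted p = 0.00035). It did not pass with sgWRN3 in SW48, 0.67 (adjusted p = 1), nor in OVK18 with sgWRN2, 0.64 (adjusted p = 0.0628), sgWRN3, 0.03 (adjusted p = 1), or both, 0.33 (adjusted p = 1). Counts are given as CPM, counts scaled to library size by TMM, and can be compared between libraries for 1 gene but not between genes. In the control libraries, 6 of 8 intestinal markers averaged above 1 CPM in SW48 and 0 of 8 in OVK18, and KRT20 and LGALS4 were the 2 near 0 in SW48. The intestinal factor CDX2 averaged 87.4 ± 23.4 CPM in SW48 control libraries and 0.0194 ± 0.0275 in those of OVK18 (SD, n = 2). Of 7 Mullerian and ovarian markers, 4 averaged above 1 CPM in SW48 (PAX8, MSLN, HOXA10 and HOXA11) and 2 in OVK18 (HOXA10 and HOXA11). PAX8, WFDC2 and EMX2 were at 0 in both OVK18 control libraries, and MSLN averaged 37.5 ± 4.43 CPM in SW48 and 0.0659 ± 0.0382 in OVK18. Above 1 CPM were also 0 of 5 fibroblast markers in SW48 and 4 of 5 in OVK18, and 1 of 4 leukocyte markers in SW48 and 0 of 4 in OVK18. In bulk RNA, fewer cells of a kind and less RNA per cell cannot be told apart.

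ACAT2 was the 1 gene of the 30 that passed the test with a WRN guide. Not passing, with 2 libraries a group, does not show that a gene was unchanged. With sgWRN2 in SW48, ACAT2 fell and the other 29 genes did not pass at an adjusted p under 0.05, over all genes tested. That is 3.33% of the 30 genes, beside 437 of 14199 genes (3.08%), so the share called was close to that of all genes. With sgWRN3 in SW48 none of the 30 was called, beside 0 of all genes (0%). In OVK18 none was called with sgWRN2, beside 0.796% of all genes, and none with sgWRN3, beside 0%. With both guides combined none was called in SW48, beside 0.866%, nor in OVK18, beside 0.0282%.

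ACAT2 encodes the cytosolic thiolase that joins acetyl-CoA units at the start of the mevalonate pathway. In SW48 it stood at 37.2 and 33.0 CPM with sgWRN2, 45.3 and 48.7 with sgWRN3, and 53.2 and 54.5 with sgCh2-2. In OVK18 it stood at 52.8 and 46.7 CPM with sgWRN2, 68.7 and 69.2 with sgWRN3, and 68.6 and 67.7 with sgCh2-2. In both lines the sgWRN2 libraries lay below all 4 other libraries of the line. In SW48 the sgWRN3 libraries also lay below both controls, whereas in OVK18 they lay just above them. The log2 fold change with sgWRN2 was -0.62 (SE 0.108, adjusted p = 0.00775) in SW48 and -0.45 (SE 0.106, adjusted p = 0.0814) in OVK18. With sgWRN3 it was -0.20 (SE 0.107, adjusted p = 1) in SW48 and 0.02 (SE 0.105, adjusted p = 1) in OVK18. The direct difference between the guides, sgWRN2 minus sgWRN3, was -0.42 (SE 0.109, adjusted p = 0.137) in SW48 and -0.47 (SE 0.106, adjusted p = 0.0668) in OVK18, and neither passed. DESeq2 called ACAT2 in both of these differences, and also with sgWRN2 in OVK18, where it gave -0.42 (SE 0.109, adjusted p = 0.00661). Without SW48 sgWRN2 replicate B, the SW48 value was -0.55 and its adjusted p 0.0997, past the threshold no longer.

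The ACAT2 exons overlap those of TCP1, SOD2 and SOD2-OT1 on the opposite strand in GENCODE v29, by 397 bases for TCP1, 1106 for SOD2 and 1458 for SOD2-OT1, of 3180 exon bases of ACAT2. Whether reads were counted by strand is not given in the sources used here, so reads of ACAT2 and its neighbours may be mixed. TCP1, a chaperonin subunit, had a log2 fold change of 0.02 (SE 0.114, adjusted p = 1) with sgWRN2 in SW48, and SOD2, a superoxide dismutase, -0.09 (SE 0.117, adjusted p = 0.868). In OVK18 these were 0.07 (SE 0.114) and 0.03 (SE 0.117). TCP1 was far more abundant than ACAT2, at 598 and 494 CPM with sgWRN2 and 533 and 546 with sgCh2-2 in SW48. No value was taken for SOD2-OT1, and the part of neighbour reads in the ACAT2 counts was not tested.

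**Figure D1:**
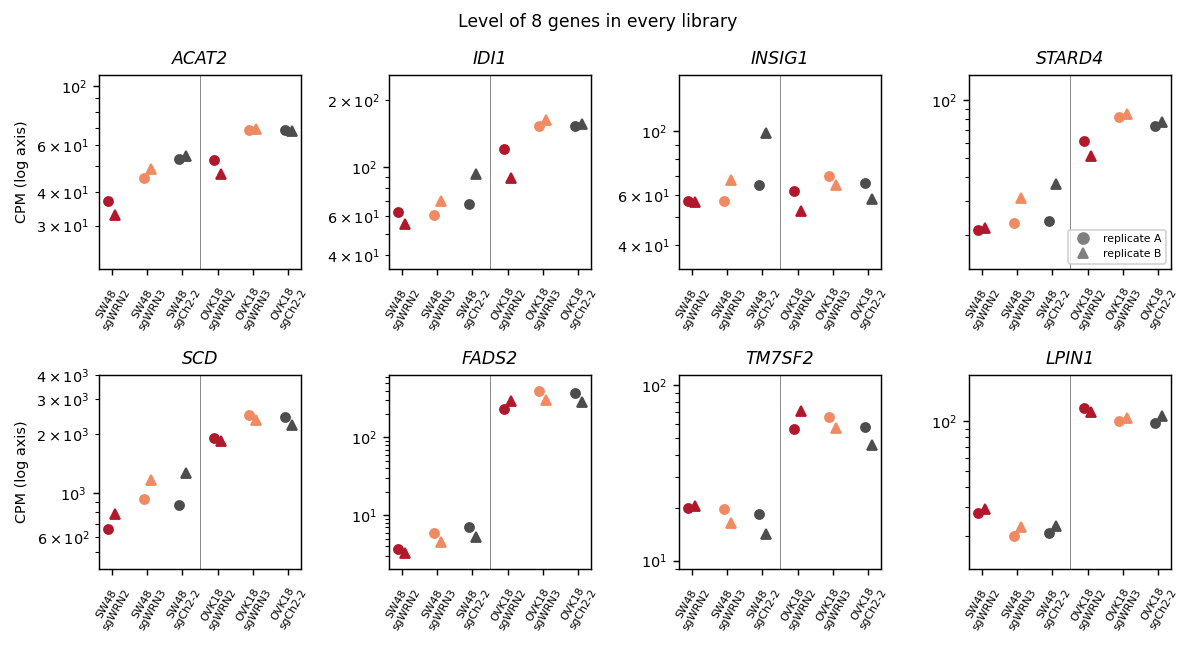
CPM (log axis) of 8 genes in each of the 12 libraries, by line and guide, with circles for replicate A and triangles for replicate B. ACAT2 in SW48 lies lowest with sgWRN2, at 37.2 and 33.0 CPM, against 53.2 and 54.5 with sgCh2-2.

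At an unadjusted p under 0.05, edgeR counted 8 of the 30 genes with sgWRN2 in SW48 (26.7%, beside 13.1% of all genes) and 5 with sgWRN2 in OVK18 (16.7%, beside 13.9%). With sgWRN3 the counts were 1 in SW48 (beside 1.85% of all genes) and 0 in OVK18 (beside 0.817%). With both guides combined they were 4 in SW48 (beside 7.84%) and 1 in OVK18 (beside 4.04%). In SW48 the median log2 fold change of the 30 genes was -0.13 with both guides, with 24 below 0, beside a median of 0.0038 over all genes tested, of which 46.8% were below 0. In OVK18 the median was -0.01 with both guides and 18 of the 30 were below 0, beside 49.8% of all genes. By guide, the medians with sgWRN2 were -0.13 in SW48 and -0.11 in OVK18. With sgWRN3 they were -0.06 in SW48, with 24 of 30 below 0, beside 50.1% of all genes. In OVK18 the median with sgWRN3 was 0.06, with 27 of 30 above 0 and 3 below, beside 48.4% of all genes below 0. The comparisons of sgWRN2 and of sgWRN3 share their control libraries. These medians rest on few libraries, with an SD between replicate libraries of 0.0871 for the median log2 CPM of the 30 genes. As single libraries were left out, the median with both guides in SW48 lay between -0.1588 and -0.053, the latter without SW48 sgCh2-2 replicate A. With sgWRN2 in SW48 it lay between -0.1617 and -0.1108. With sgWRN2 in OVK18 it was -0.0092 without OVK18 sgCh2-2 replicate A and -0.1595 without OVK18 sgCh2-2 replicate B. It was -0.0151 without OVK18 sgWRN2 replicate A and -0.0669 without OVK18 sgWRN2 replicate B. With both guides in OVK18 it lay between -0.0893 and 0.0454 as single libraries were left out, on both sides of 0. With sgWRN3 it then lay between -0.1424 and -0.0099 in SW48 and between 0.0023 and 0.1208 in OVK18.

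DESeq2 called 4 of the 30 genes with sgWRN2 in SW48, ACAT2, SCD and FADS2 lower and LPIN1 higher (13.3%), beside 5.7% of the genes it gave an adjusted p. It called 1, ACAT2, with both guides in SW48 (3.33%), beside 2.77%, and 1, ACAT2, with sgWRN2 in OVK18, beside 3.45%. It called none with both guides in OVK18, beside 0.19%, and none with sgWRN3 in SW48, beside 0.0634%, or in OVK18, beside 0.00704%. limma-voom called ACAT2 with sgWRN2 in SW48, beside 3.27% of all genes. It called none of the 30 in the other guide comparisons with sgCh2-2, beside 0% to 0.965%.

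**Figure D2:**
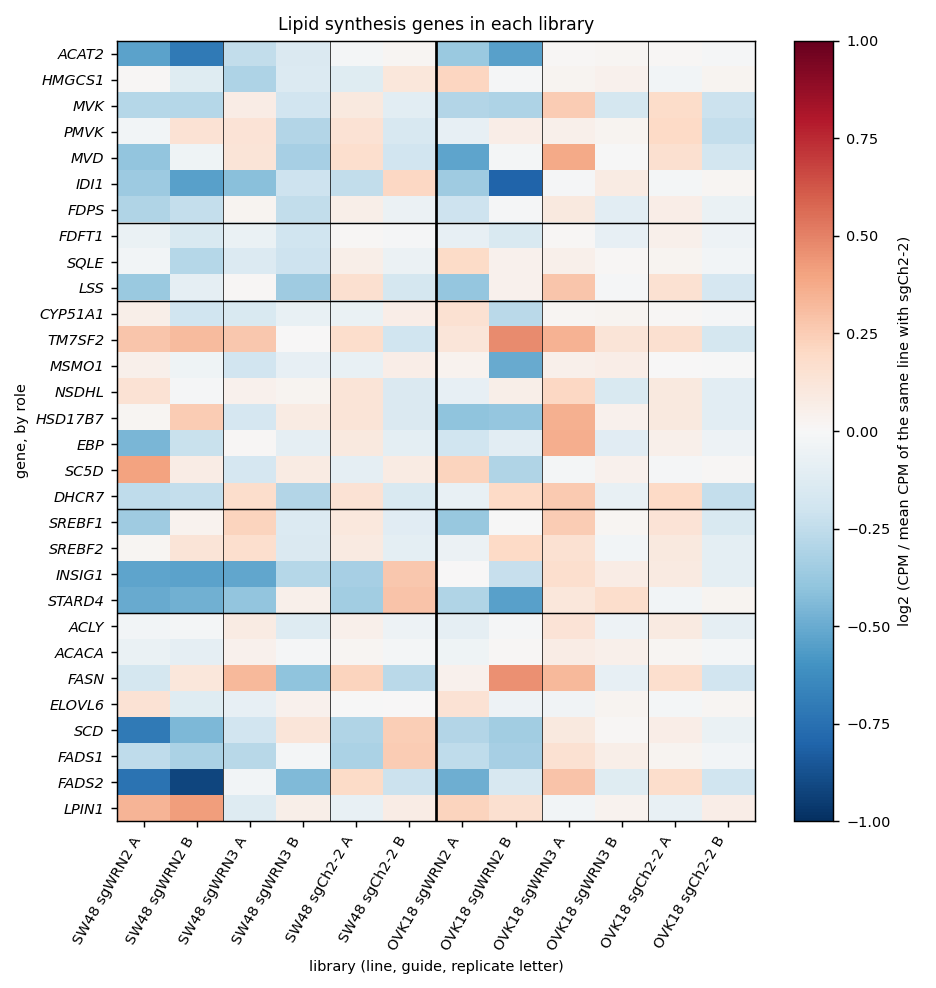
Level of the 30 genes in each library as log2 of CPM over the mean CPM of the same line with sgCh2-2, with genes in rows by role and libraries in columns. Genes such as ACAT2, IDI1 and STARD4 are below 0 (blue) in all 4 sgWRN2 libraries, and the A and B libraries of a group differ in many rows.

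Of the other mevalonate enzymes, IDI1, MVK, MVD and FDPS had their lowest mean with sgWRN2 in both lines. IDI1 is the isomerase that makes the reactive isoprene unit. In SW48 IDI1 stood at 62.8 and 55.4 CPM with sgWRN2, 60.4 and 70.0 with sgWRN3, and 68.1 and 93.1 with sgCh2-2. In OVK18 IDI1 stood at 121 and 88.8 CPM with sgWRN2, 153 and 163 with sgWRN3, and 153 and 156 with sgCh2-2. The sgWRN2 libraries of IDI1, like those of the kinase MVK, lay below both controls in both lines. The 2 SW48 controls of IDI1 were themselves far apart. The log2 fold change of IDI1 with sgWRN2 was -0.45 (SE 0.167, adjusted p = 0.245) in SW48 and -0.56 (SE 0.163, adjusted p = 0.151) in OVK18.

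HMGCS1, which makes HMG-CoA, did not follow that pattern. In SW48 it stood at 106 and 96.1 CPM with sgWRN2, 84.6 and 95.3 with sgWRN3, and 96.0 and 113 with sgCh2-2, and in OVK18 at 173 and 148 CPM with sgWRN2, 152 and 154 with sgWRN3, and 146 and 152 with sgCh2-2. In SW48 the sgWRN3 libraries lay below both controls and the sgWRN2 libraries lay between them, while in OVK18 the libraries of sgWRN2 and the controls overlapped. Its log2 fold change with both guides was -0.13 in SW48, with a 95% interval of -0.35 to 0.08, and 0.07 in OVK18, with -0.14 to 0.29. The kinases and the decarboxylase of the pathway, MVK, PMVK and MVD, and the farnesyl diphosphate synthase FDPS had log2 fold changes of -0.29 to 0.06 with sgWRN2 in SW48 and -0.30 to -0.0046 in OVK18, and none passed. FDPS, HSD17B7 and CYP51A1 have near-identical pseudogene copies, and how reads shared with them were counted is not given in the sources used here.

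From squalene to lanosterol, the 3 enzymes did not pass in either line. Squalene epoxidase, SQLE, is a rate-limiting oxygen-dependent step. In SW48 SQLE stood at 97.1 and 80.9 CPM with sgWRN2, 89.9 and 85.8 with sgWRN3, and 103 and 94.6 with sgCh2-2, and in OVK18 at 233 and 210.0 CPM with sgWRN2, 211 and 205 with sgWRN3, and 208 and 199 with sgCh2-2. With sgWRN3 in SW48 both SQLE libraries lay below both controls, and with sgWRN2 in OVK18 both lay above them. LSS, the cyclase that forms lanosterol, stood in SW48 at 28.6 and 34.6 CPM with sgWRN2, 37.3 and 28.9 with sgWRN3, and 41.2 and 32.7 with sgCh2-2. In OVK18 LSS stood at 46.2 and 62.3 CPM with sgWRN2, 73.4 and 60.2 with sgWRN3, and 67.3 and 53.8 with sgCh2-2. The LSS libraries of each WRN guide overlapped the controls in both lines. The log2 fold change with both guides was -0.16 for SQLE, -0.20 for LSS and -0.12 for the squalene synthase FDFT1 in SW48, with adjusted p of 0.781, 0.936 and 0.845. In OVK18 the 3 values were 0.08, -0.01 and -0.07.

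The 8 enzymes from lanosterol to cholesterol had log2 fold changes with both guides of -0.19 to 0.21 in SW48 and -0.09 to 0.28 in OVK18. The highest in each line was TM7SF2, a sterol reductase. In SW48 TM7SF2 stood at 19.8 and 20.5 CPM with sgWRN2, 19.8 and 16.5 with sgWRN3, and 18.5 and 14.3 with sgCh2-2. In OVK18 TM7SF2 stood at 56.3 and 71.7 CPM with sgWRN2, 65.9 and 56.7 with sgWRN3, and 57.7 and 45.7 with sgCh2-2. Both sgWRN2 libraries lay above both controls in SW48, while in OVK18 1 sgWRN2 library and 1 sgWRN3 library lay below the higher control. Its log2 fold change with both guides was 0.21 (SE 0.158, adjusted p = 0.89) in SW48 and 0.28 (SE 0.148, adjusted p = 1) in OVK18.

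Among the regulators, the factors themselves did not pass the test with a WRN guide in either line. SREBF2 stood in SW48 at 178 and 192 CPM with sgWRN2, 198 and 159 with sgWRN3, and 187 and 165 with sgCh2-2, and in OVK18 at 225 and 269 CPM with sgWRN2, 261 and 230.0 with sgWRN3, and 251 and 219 with sgCh2-2. Its log2 fold change with both guides was 0.05 in SW48, with a 95% interval of -0.21 to 0.30, and 0.07 in OVK18, with -0.19 to 0.32. SREBF1 stood in SW48 at 32.4 and 42.5 CPM with sgWRN2, 48.5 and 37.9 with sgWRN3, and 44.6 and 38.5 with sgCh2-2. In OVK18 SREBF1 stood at 71.6 and 92.8 CPM with sgWRN2, 111 and 94.6 with sgWRN3, and 102 and 83.7 with sgCh2-2. The libraries of each guide overlapped those of the controls for both factors in both lines. For SREBF1 the log2 fold change with both guides was -0.05 in SW48, with an interval of -0.40 to 0.30, and -0.02 in OVK18, with -0.35 to 0.32. Total transcript does not measure cleavage of the proteins, and the table does not separate the transcripts of SREBF1.

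INSIG1, the endoplasmic reticulum protein that holds SREBPs back and is itself a target of them, had the second smallest p of the 30 in SW48 with both guides. In SW48 INSIG1 stood at 57.0 and 56.6 CPM with sgWRN2, 57.1 and 67.4 with sgWRN3, and 65.1 and 98.8 with sgCh2-2. In OVK18 INSIG1 stood at 62.0 and 52.8 CPM with sgWRN2, 69.6 and 64.9 with sgWRN3, and 65.9 and 57.8 with sgCh2-2. The SW48 controls were far apart, and 1 sgWRN3 library lay above the lower of them. The log2 fold change with both guides was -0.46 (SE 0.147, adjusted p = 0.298) in SW48 and 0.01 (SE 0.148, adjusted p = 1) in OVK18, and SW48 minus OVK18 was -0.47 (SE 0.21, adjusted p = 1), which did not pass. With both guides in SW48, INSIG1 was at -0.75 (adjusted p = 0.0518) without SW48 sgCh2-2 replicate A and at -0.14 (adjusted p = 1) without SW48 sgCh2-2 replicate B.

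STARD4, which carries cholesterol between membranes, was like INSIG1 for sgWRN2 in SW48 but not in OVK18, where the INSIG1 libraries overlapped the controls. In SW48 STARD4 stood at 21.2 and 21.6 CPM with sgWRN2, 22.9 and 31.2 with sgWRN3, and 23.7 and 36.7 with sgCh2-2. In OVK18 STARD4 stood at 61.0 and 51.5 CPM with sgWRN2, 81.2 and 84.7 with sgWRN3, and 73.6 and 76.5 with sgCh2-2. With sgWRN2 its libraries lay below both controls in both lines, and in SW48 the controls were again apart, B higher. Its log2 fold change with sgWRN2 was -0.48 (SE 0.196, adjusted p = 0.298) in SW48 and -0.41 (SE 0.185, adjusted p = 0.345) in OVK18. Without SW48 sgCh2-2 replicate A, edgeR called STARD4 with sgWRN2 in SW48 (-0.81, SE 0.174, adjusted p = 0.0379), SCD (-0.85, SE 0.146, adjusted p = 0.0115) and INSIG1 (-0.83, SE 0.144, adjusted p = 0.0122) besides ACAT2. That is 4 of the 30 (13.3%), beside 2.1% of all genes in that fit, against 1 with that library. Without SW48 sgCh2-2 replicate B it called ACAT2 alone (3.33%), beside 1.33%.

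Of the fatty acid genes, SCD, the stearoyl-CoA desaturase that makes oleate, was the most abundant per length of all 30 genes in the control libraries of both lines. Its deposited FPKM, fragments scaled to transcript length and depth, were 135 and 191 in SW48 controls and 376 and 331 in OVK18 controls. In SW48 SCD stood at 656 and 783 CPM with sgWRN2, 936 and 1162 with sgWRN3, and 868 and 1271 with sgCh2-2. In OVK18 SCD stood at 1906 and 1834 CPM with sgWRN2, 2501 and 2353 with sgWRN3, and 2446 and 2228 with sgCh2-2. All 4 sgWRN2 libraries lay below the controls of their line. With sgWRN2 the log2 fold change was -0.57 (SE 0.164, adjusted p = 0.0975) in SW48 and -0.32 (SE 0.163, adjusted p = 0.421) in OVK18, and with sgWRN3 it was -0.03 (SE 0.163) in SW48 and 0.05 (SE 0.163) in OVK18.

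FASN, the fatty acid synthase, had libraries of 1 group that differed as much as those of different groups. In SW48 FASN stood at 154 and 189 CPM with sgWRN2, 218 and 132 with sgWRN3, and 204 and 145 with sgCh2-2. In OVK18 FASN stood at 268 and 357 CPM with sgWRN2, 325 and 246 with sgWRN3, and 292 and 228 with sgCh2-2. Its log2 fold change with both guides was -0.01 in SW48, with a 95% interval of -0.48 to 0.46, and 0.20 in OVK18, with -0.27 to 0.67. ACLY, which frees acetyl-CoA from citrate, ACACA, which makes malonyl-CoA, and ELOVL6, which lengthens palmitate, had log2 fold changes with either guide between -0.08 and 0.06 in both lines.

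FADS2, a desaturase of polyunsaturated fatty acids, was scarce in SW48. There it stood at 3.69 and 3.25 CPM with sgWRN2, 6.02 and 4.52 with sgWRN3, and 7.02 and 5.29 with sgCh2-2. In OVK18 FADS2 stood at 232 and 292 CPM with sgWRN2, 398 and 299.8 with sgWRN3, and 368 and 283 with sgCh2-2. In SW48 both sgWRN2 libraries lay below both controls, and in OVK18 1 of the sgWRN2 libraries lay above the lower control. With sgWRN2 the log2 fold change was -0.84 (SE 0.264, adjusted p = 0.141) in SW48 and -0.32 (SE 0.178, adjusted p = 0.475) in OVK18. Its exons share 49 bases on the same strand with FEN1, a flap nuclease of DNA replication, which stood at 55.6 and 52.7 CPM with sgWRN2 in SW48 against 94.2 and 85.7 with sgCh2-2 and fell by 0.73 on the log2 scale there (SE 0.121, adjusted p = 0.0052). The part of FEN1 reads in the low FADS2 counts of SW48 was not tested.

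LPIN1, a phosphatidate phosphatase of glycerolipid synthesis, lay on the other side. In SW48 LPIN1 stood at 27.9 and 29.5 CPM with sgWRN2, 20.2 and 23.0 with sgWRN3, and 20.9 and 23.2 with sgCh2-2. In OVK18 LPIN1 stood at 119.6 and 114 CPM with sgWRN2, 101 and 105 with sgWRN3, and 97.6 and 107 with sgCh2-2. In both lines the sgWRN2 libraries lay above both controls, while the sgWRN3 libraries overlapped them. With sgWRN2 the log2 fold change was 0.38 (SE 0.112, adjusted p = 0.108) in SW48 and 0.19 (SE 0.104, adjusted p = 0.456) in OVK18.

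**Figure D3:**
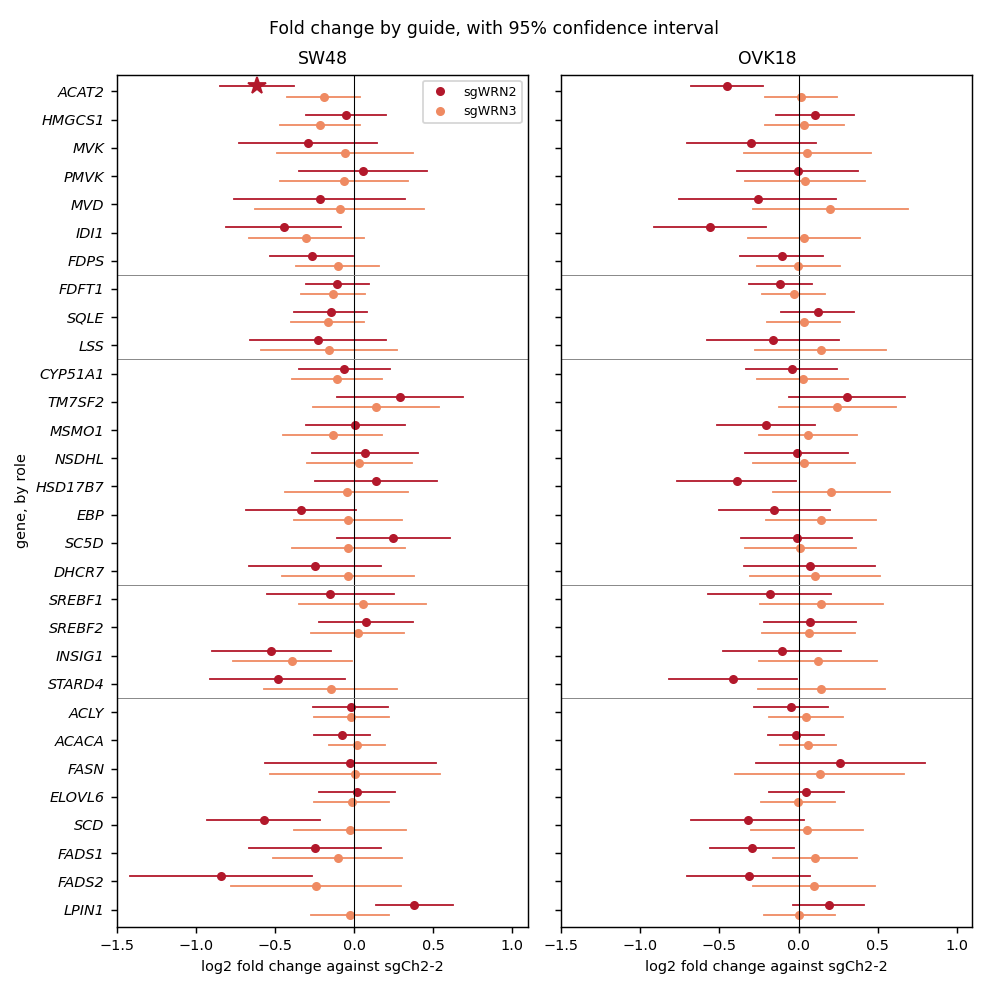
Log2 fold change against sgCh2-2 with its 95% confidence interval, for sgWRN2 (dark) and sgWRN3 (light) in SW48 and OVK18, with genes in rows by role; the star marks the value past an adjusted p of 0.05. ACAT2 with sgWRN2 in SW48, at -0.62, carries the star, and most intervals include 0.

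The guides were also set against each other within a line. For sgWRN2 minus sgWRN3, edgeR called none of the 30 genes in SW48, beside 0.944% of all genes, and none in OVK18, beside 0.747%. At an unadjusted p under 0.05 there were 3 in SW48, beside 8.6% of all genes, and 7 in OVK18 (23.3%), beside 14.5%. DESeq2 called 1 in SW48 (ACAT2), beside 2.3% of all genes, and 2 in OVK18 (ACAT2 and IDI1, 6.67%), beside 4.19%. In OVK18, 23 of the 30 differences were below 0, beside 51% of all genes, with a median of -0.10, beside -0.0068 over all genes. The difference between the lines in the effect of both guides passed for none of the 30, beside 0.0282% of all genes, with 1 (INSIG1) at an unadjusted p under 0.05, beside 2.75%. DESeq2 called none there, beside 0.0961%, and limma-voom none, beside 0.0282%.

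Replicates A and B of a group differed in a way that followed the GC content of the transcripts. Across the 30 genes, the log2 difference of A minus B correlated with the GC percentage of the longest annotated transcript with Pearson r of -0.58 for sgWRN2, 0.89 for sgWRN3 and 0.72 for sgCh2-2 in SW48. In OVK18 r was -0.90 for sgWRN2, 0.71 for sgWRN3 and 0.82 for sgCh2-2. The sign was thus negative in the sgWRN2 pair of each line and positive in the other pairs. Over the 13183 tested genes with a GC value the correlations had the same signs, from -0.57 to 0.50. These are descriptions across genes of 1 pair of libraries, and genes are not independent replicates. FASN, with 65.3% GC the highest of the 30, stood at 268 and 357 CPM in A and B with sgWRN2 in OVK18, B higher, and at 292 and 228 with sgCh2-2, A higher. STARD4, with 34.2% the lowest, went the other way in these libraries. The log2 fold changes of the guides against sgCh2-2, which average A and B, correlated with GC by -0.02 to 0.40.

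**Figure D4:**
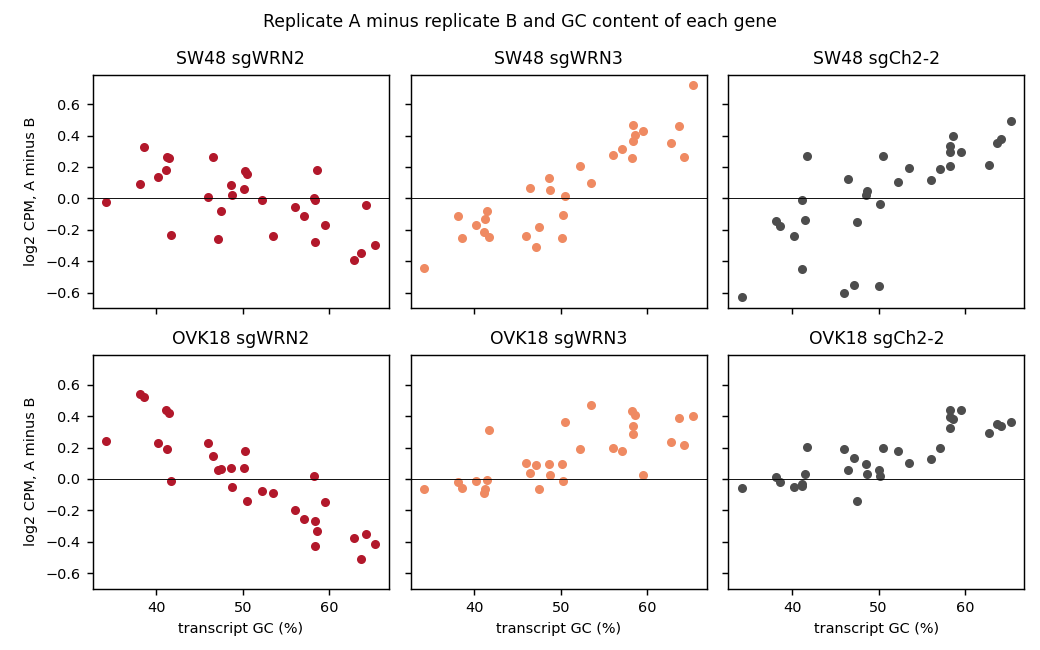
Log2 CPM of replicate A minus replicate B of each of the 30 genes against the GC percentage of its transcript, for each line and guide. Points rise with GC in the sgWRN3 and sgCh2-2 panels and fall with GC in the sgWRN2 panels, with r of -0.90 for sgWRN2 in OVK18.

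Since the libraries stood apart in this way, the fit was repeated with each library's trend on GC removed, a choice made after the data were seen. The median size of the A minus B difference of the 30 genes was then 0.08 to 0.13 across the 6 groups, against 0.10 to 0.25 before. In OVK18 with sgWRN3 it did not fall, at 0.097 before and 0.1003 after. Removing the trend lowers a difference that follows GC by construction. Of the 30 genes, 9 passed with sgWRN2 in SW48 (30%), beside 12.4% of all genes. There 6 fell. The log2 fold change was -0.61 (SE 0.0937, adjusted p = 0.000398) for ACAT2 and -0.42 (SE 0.0935, adjusted p = 0.00747) for IDI1. For the desaturases it was -0.83 (adjusted p = 0.00661) for FADS2 and -0.58 (adjusted p = 0.043) for SCD, and the other 2 were STARD4 at -0.43 (adjusted p = 0.0289) and FDPS at -0.26 (adjusted p = 0.0129). The 3 that rose were LPIN1 at 0.38 (adjusted p = 0.0111), TM7SF2 at 0.32 (adjusted p = 0.0489) and the sterol desaturase SC5D at 0.26 (adjusted p = 0.0452).

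With sgWRN2 in OVK18, 5 of the 30 passed in that fit (16.7%), beside 12.4% of all genes. ACAT2 fell, with a log2 fold change of -0.45 (SE 0.0882, adjusted p = 0.00429), and so did IDI1, with -0.50 (SE 0.0881, adjusted p = 0.00216). FADS2, at -0.34 (adjusted p = 0.0196), and its paralog FADS1, at -0.29 (adjusted p = 0.0396), also fell, and TM7SF2 rose, at 0.28 (adjusted p = 0.0396). ACAT2, IDI1, FADS2 and TM7SF2 passed with the same sign in both lines, which is 4 of 9 in SW48 and 4 of 5 in OVK18. The same share over all genes was not counted, so this overlap cannot be read as particular to the 30 genes. With sgWRN3 none passed in SW48, beside 0.0834% of all genes, or in OVK18, beside 0.00759%. With both guides combined ACAT2, IDI1 and FADS2 fell in SW48, beside 5.35%, and none passed in OVK18, beside 0.508%.

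For sgWRN2 minus sgWRN3 in the same fit, ACAT2 was lower and LPIN1 higher in SW48, 2 of 30 (6.67%) beside 5.21% of all genes. In OVK18 STARD4, IDI1, FADS1, LSS, ACAT2, MVD, SREBF1 and FADS2 were lower, 8 of 30 (26.7%) beside 14.1%. For IDI1 that difference in OVK18 was -0.55 (SE 0.0883, adjusted p = 0.00128), and for SREBF1 -0.31 (SE 0.0691, adjusted p = 0.00884). The median size of the move in log2 fold change of the 30 genes was 0.0203 with sgWRN2 in OVK18 and 0.01 with sgWRN2 in SW48, but single genes moved further. STARD4 with sgWRN2 in OVK18 was -0.41 before and -0.22 after, and with sgWRN3 in SW48 -0.15 before and -0.0105 after. IDI1 with sgWRN2 in OVK18 was -0.56 before and -0.50 after. The SE was smaller in this fit for 28 of the 30 genes with sgWRN2 in SW48 and for 29 in OVK18, with a median of 0.164 before and 0.0936 after in SW48.

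The control libraries of the lines were compared as a baseline, and most of the 30 genes were less abundant in SW48 than in OVK18. Of the 30, 23 differed (76.7%), beside 68.6% of all genes. Higher in SW48 were 2 (6.67%), beside 33.9% of all genes, and lower were 21 (70%), beside 34.7%. The median log2 difference, SW48 minus OVK18, was -0.60 for the 30 genes and 0.0001 over all genes. By role, 7 of 8 fatty acid and glycerolipid genes, 6 of 7 mevalonate genes, 3 of 3 from squalene to lanosterol and 3 of 4 regulators were lower in SW48, while of the 8 from lanosterol to cholesterol 2 were lower and 2 higher.

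The desaturases of polyunsaturated fatty acids stood farthest apart. FADS1 stood at 3.20 and 4.75 CPM in SW48 controls and 210.5 and 203 in OVK18 controls, a log2 difference of -5.73 (SE 0.161, adjusted p = 1.42e-11). FADS2 stood at 7.02 and 5.29 CPM in SW48 controls and 368 and 283 in OVK18 controls, a log2 difference of -5.70 (SE 0.228, adjusted p = 3.05e-10). Per length, FADS1 was the least abundant of the 30 in SW48 controls, at 0.589 and 0.853 FPKM, against 38.1 and 35.2 in OVK18 controls. FADS1 and FADS2 are neighbouring genes whose exons overlap by 142 bases on opposite strands. The 3 next in order were LPIN1 at -2.22 (SE 0.111, adjusted p = 2.44e-09), TM7SF2 at -1.65 (SE 0.178, adjusted p = 3.9e-06) and ACLY at -1.37 (SE 0.11, adjusted p = 2.27e-07).

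Higher in SW48 were CYP51A1, the lanosterol demethylase, with 403 and 442 CPM in SW48 controls and 212 and 208 in OVK18 controls, and EBP, a sterol isomerase, with 39.1 and 34.1 in SW48 controls and 21.3 and 19.9 in OVK18 controls. The log2 difference was 1.01 (SE 0.132, adjusted p = 2.35e-05) for CYP51A1 and 0.83 (SE 0.158, adjusted p = 0.000494) for EBP. INSIG1, at 0.40 (SE 0.171, adjusted p = 0.0526), and FASN, at -0.57 (SE 0.247, adjusted p = 0.0561), did not pass. MSMO1, DHCR7, FDPS, SC5D and HSD17B7 did not pass either, with log2 differences of -0.28 to -0.05. In all, the 30 genes took 0.295% to 0.381% of the counts of a library in SW48 and 0.552% to 0.684% in OVK18, the lowest in each line being a sgWRN2 library. These shares lean on SCD, which had the highest counts of the 30. SCD averaged 719 CPM with sgWRN2 and 1070 with sgCh2-2 in SW48, and 1870 and 2337 in OVK18.

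**Figure D5:**
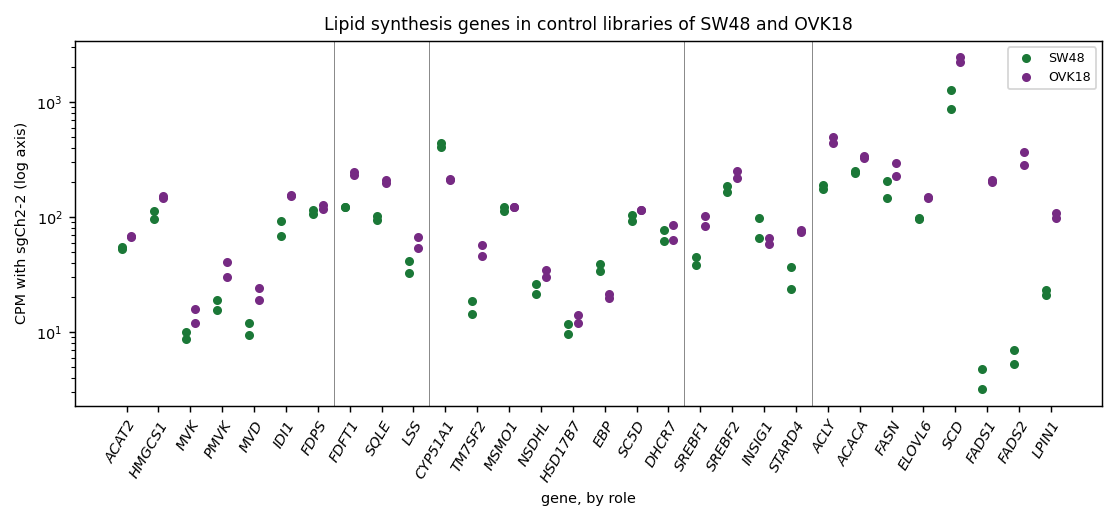
CPM (log axis) of the 30 genes in the control libraries of SW48 (left of each pair) and OVK18 (right), with 1 point per library and genes by role. FADS1 lies at 3.20 and 4.75 CPM in SW48 and at 210.5 and 203 CPM in OVK18. The log2 difference is below 0 for 27 of the 30 genes. For 21 of the 30 it is also past an adjusted p of 0.05, beside 34.7% of all genes.

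Beyond the 30 genes, 50 other genes of lipid metabolism were tallied in 6 lists: SREBP processing, LXR factors and targets, sterol transport, other lipid synthesis, the isoprenoid branch and fatty acid oxidation. All 50 were tested, and edgeR called none with either guide, with both guides, or between guides, in either line, beside 0% to 3.08% of all genes. At an unadjusted p under 0.05 there were 5 of 50 with sgWRN2 in SW48 (10%, beside 13.1% of all genes) and 7 with sgWRN2 in OVK18 (14%, beside 13.9%). Over these 8 comparisons there were 0 to 10, beside 0.817% to 14.5% of all genes. Between the control lines 36 of the 50 differed, beside 68.6% of all genes. Higher in SW48 were 16 of the 50, beside 33.9% of all genes, and lower were 20, beside 34.7%. Of the 7 fatty acid oxidation genes 6 were lower in SW48, beside the same 34.7%, and none higher. CPT1A, the carnitine transferase of mitochondrial entry, had a log2 difference of -1.47 (SE 0.126, adjusted p = 4.34e-07).

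ABCA1, the cholesterol exporter driven by LXR, stood at 0.0641 and 0.0540 CPM in SW48 controls and 123 and 137 in OVK18 controls. ELOVL5, which lengthens the products of FADS2, stood at 0.256 and 0.216 CPM in SW48 controls and 315 and 311 in OVK18 controls. ME1, the cytosolic malic enzyme that makes NADPH for fatty acid synthesis, went the other way, at 109 and 122 CPM in SW48 controls and 0.0777 and 0.0310 in OVK18 controls. These 3 were chosen after their values were seen, as genes near 0 in 1 line.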

How the data were processed

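The authors deposited 2 gene tables of the 12 libraries: raw counts per gene and a second table whose fractional values were taken as FPKM, since its header gives no unit. The submitters' processing notes name bcl2fastq 2.18, STAR 2.5, Cufflinks 2.2.1 and the build hg19. Counts divided by the deposited FPKM rose with transcript length (Spearman rho 0.79 over 10532 genes). Annotation and strand setting are not given in the sources used here. The 92 spike-in features, all at 0, were left out, and 28 symbols had become dates.

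Counts were tested in R 4.3.3 with edgeR 4.0.16 (TMM, filterByExpr over 6 groups, robust quasi-likelihood fit, 1 coefficient per group, 6 residual degrees of freedom), with Benjamini-Hochberg adjustment over the 14199 genes tested and a threshold of 0.05. For both guides combined, the sgWRN2 and sgWRN3 coefficients were averaged before sgCh2-2 was subtracted. Standard errors follow from the F statistic, and replicate libraries differed beyond counting noise in every group (chi-square per gene 8.68 to 25). Alternatives were RLE factors, library size alone, no filter, a mean of 5 CPM, DESeq2 1.42.0, limma 3.58.1 (voom, and trend on FPKM with pseudocounts 1 and 0.1), only the libraries of 1 line, a replicate block, leaving out the sgWRN2 libraries and leaving out each library. A fit with each library's lowess trend on transcript GC (GENCODE v29) as an offset, over 13183 genes, was added after the data were seen. The fits were run on simulated data, and the outcomes are not listed here. For the GC fit the simulated counts carried the smooth GC trend of these libraries, with noise independent between genes. That simulation cannot show how the fit does where real libraries differ in other ways.

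The genes and lists were chosen with earlier results of these data known. Values in every library are given for 10 genes fixed by name (SREBF1, SREBF2, INSIG1, HMGCS1, SQLE, LSS, FASN, SCD, FADS2, STARD4), for any of the 30 past the threshold with a guide, and for the 4 smallest p of each line with both guides; between lines, for the 5 highest and 5 lowest past the threshold. 1 result among the other lipid genes is not reported here.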

Additional observations from a re-analysis of the deposited data

How the results depend on the processing

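The ACAT2 call with sgWRN2 in SW48 held under 23 of 24 alternatives, with log2 fold changes of -0.71 to -0.55, and was lost without SW48 sgWRN2 replicate B, which left 1 library in that group, assumed to vary like the others (-0.55, adjusted p = 0.0997). Of 510 alternative values for 22 named fold changes, 476 kept direction and side of the threshold and 31 newly passed it. ACAT2 with sgWRN3 in OVK18, near 0, changed sign without OVK18 sgCh2-2 replicate B (-0.0003) and without OVK18 sgWRN3 replicate B (-0.0095), and leaving out single libraries gave -0.0095 to 0.0161.

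Of the 30 genes, the number called with both guides in SW48 was 0 as reported, beside 0.866% of all genes. It was 1 (3.33%) with library size alone, a mean of 5 CPM, DESeq2 or FPKM with either pseudocount, beside 1.11% to 2.77%. It was 2 with no filter (6.67%, beside 1.46%) and 3 with the GC trend removed (10%, beside 5.35%). With sgWRN2 in SW48 it was 1 as reported (3.33%, beside 3.08% of all genes) and 6 with no filter (20%, beside 3.44%). It was 4 with DESeq2 (13.3%, beside 5.7%) and 9 with the GC trend removed (30%, beside 12.4%). With sgWRN2 in OVK18 it was 0 as reported, beside 0.796% of all genes, and 1 (3.33%) with library size alone, no filter or DESeq2, beside 1% to 3.45%. It was 5 with the GC trend removed (16.7%, beside 12.4%). For sgWRN2 against sgWRN3 in SW48 it was 0 as reported, beside 0.944% of all genes. It was 1 (3.33%) with library size alone, no filter, DESeq2 or FPKM with either pseudocount, beside 1.09% to 2.3%. It was 2 with the GC trend removed (6.67%, beside 5.21%). For sgWRN2 against sgWRN3 in OVK18 it was 0 as reported, beside 0.747% of all genes. It was 1 (3.33%) with library size alone or FPKM with pseudocount 1, beside 1.06% and 1.31%. It was 2 (6.67%) with no filter or DESeq2, beside 2.59% and 4.19%, and 8 with the GC trend removed (26.7%, beside 14.1%). Leaving out a single library leaves 1 library in a group, and the ranges of those counts are not listed here. The counts with both guides in OVK18, with sgWRN3 in OVK18 and for the difference between the lines were 0 under every alternative with 2 libraries in every group. Between the control lines the count was 23 as reported (76.7%, beside 68.6% of all genes) and 26 with the GC trend removed (86.7%, beside 77.7%). The number of all genes called between the control lines ran from 7315 to 10349 over the alternatives. The cause of these moves was not tested.

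The letters A and B were not treated as pairs: the correlation of deviations over all genes was -0.30 to 0.35 in 9 pairs of groups with sgWRN2 and 0.33 to 0.41 in 6 without. The A minus B trend on GC ran the other way in sgWRN2, so the block sets unlike libraries together, and the labels do not say what the letters mark. With the letter as a replicate block, the number called with sgWRN2 in SW48 was 2 (SCD and ACAT2), beside 1.87% of all genes. With the replicate block and no sgWRN2 libraries it was 2 with sgWRN3 in SW48 (beside 1.06% of all genes), IDI1 (-0.29, adjusted p = 0.0391) and INSIG1 (-0.37, adjusted p = 0.0296). With the replicate block and the GC trend removed it was 6 with both guides (beside 6.81% of all genes) and 11 with sgWRN2 in SW48 (36.7%, beside 15%), 10 with sgWRN2 in OVK18 (33.3%, beside 16.2%), and 5 in SW48 (beside 6.71%) and 12 in OVK18 (40%, beside 17.9%) for sgWRN2 against sgWRN3. The number of all genes called moved too, here over the alternatives with 2 libraries in every group. It was 437 with sgWRN2 in SW48 as reported and 265 to 1980 over these alternatives, and 113 and 30 to 2133 with sgWRN2 in OVK18. It was 123 and 28 to 898 with both guides in SW48, and 4 and 1 to 92 with both guides in OVK18. For sgWRN3 it was 0 and 0 to 151 in SW48, and 0 and 0 to 12 in OVK18. Between guides it was 134 and 34 to 884 in SW48, and 106 and 25 to 2356 in OVK18. For the difference between the lines it was 4 and 0 to 47. With 2 libraries a group, the 95% intervals give the precision of each fold change.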
